A study of Mus musculus with 12 samples.

Results

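The genes described here are the fibroblast growth factor (FGF), platelet-derived growth factor (PDGF), vascular endothelial growth factor (VEGF), epidermal growth factor (EGF) and hepatocyte growth factor (HGF) families, ligands and receptors together. Within these families the members were taken by gene symbol and not by a measured value: every Fgf, Fgfr, Fgfrl1, Pdgf, Pdgfr, Vegf, Nrg and Erbb gene, together with Egf, Egfr, Ereg, Areg, Btc, Hbegf, Tgfa, Hgf, Met, Kdr, Flt1, Flt4, Nrp1, Nrp2 and Pgf. The rule found 61 of the 22063 genes in the table, under 60 symbols, because Nrg1 has 2 gene identifiers. There were 27 genes of the FGF family, 15 of the EGF family, 10 of the VEGF family, 7 of the PDGF family and 2 of the HGF family. By role, 39 encode ligands, 18 encode receptors or co-receptors and 4 encode intracellular proteins related to the FGFs. Of the 61, 46 had enough counts to be tested and 15 did not.

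RNA was measured by sequencing in 12 libraries of mesenchymal cells, which had grown out of mandibular condyles of neonatal Plagl1 fl/fl mice, whose floxed Plagl1 allele Cre can recombine. The 4 groups held 3 libraries each. OI-AdV-CRE-EGFP cells received an adenovirus carrying Cre and EGFP (HBAD-CRE-EGFP) and then 4 days of osteogenic induction, and OI-AdV-EGFP cells received the virus with EGFP alone (HBAD-EGFP) and the same induction. AdV-CRE-EGFP and AdV-EGFP cells received these viruses and were collected on day 0. All groups therefore carried the floxed allele and an adenovirus, at a multiplicity of infection of 100, and Cre came from the virus and not from a promoter of a cell type. The medium for induction contained dexamethasone, a glucocorticoid, at 100 nM, with ascorbic acid at 50 μg/mL and β-glycerophosphate at 5 mM. No group was kept for 4 days without this medium, so induction and 4 more days in culture cannot be told apart. No source used here states whether replicate libraries derive from different cultures or mice, so the p-values weigh differences against a spread that could be purely technical.

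Library totals ran from 15316989 to 18052040 counts, and the 61 genes together took 0.206% to 0.266% of them. Levels of a gene are compared between libraries as TMM-scaled CPM, its counts set against the library's total after TMM scaling. Levels of different genes are compared only as FPKM, which also divides by transcript length. Differences are log2 fold changes ± standard error from edgeR. A gene was called when its Benjamini-Hochberg adjusted p over the 13670 tested genes was under 0.05 and its log2 fold change was at least 1 in either direction. Plagl1 itself did not show lower RNA in the libraries labelled as given Cre: it stood at 382, 404 and 368 CPM in OI-AdV-CRE-EGFP against 402, 393 and 379.5 CPM in OI-AdV-EGFP, and at 581, 593 and 591 CPM in AdV-CRE-EGFP against 386, 426 and 390.2 CPM in AdV-EGFP. No source used here says which part of Plagl1 is floxed, and counts over a whole gene can include transcripts that lack it, so these values neither check the labels nor bear on the protein, which was not measured in these libraries. The study reports lower PLAGL1 protein by Western blot in condylar cells given the Cre virus, after osteogenic induction. The groups are named by their labels. The mesenchymal marker list (Col1a1, Col3a1, Prrx1, Lum and others, 9 of 9 tested) summed to 14486 to 22269.6 CPM over all libraries. Because the libraries are of bulk RNA, fewer cells of a type and less RNA per cell cannot be told apart.

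Most ligands of these families are secreted or shed from the cell surface and bind receptor tyrosine kinases, which pair up, phosphorylate each other and start the RAS-ERK, PI3K and PLCγ cascades. FGFs need heparan sulfate chains to hold their receptors together, while the neuropilins Nrp1 and Nrp2 are co-receptors without kinase activity that bind both VEGFs and class 3 semaphorins. In the skeleton these families are known for the growth of osteoprogenitors and chondrocytes, the attraction of vessels into forming bone, and the dwarfism and craniosynostosis that follow from changes in FGF receptors.

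Induction changed 50.0% of the 46 tested genes in the EGFP pair and 41.3% in the Cre pair. In the EGFP pair (OI-AdV-EGFP relative to AdV-EGFP), 13 of 46 were called higher, against 15.1% of all tested genes, and 10 of 46 were called lower, against 10.8% of all tested genes. In the Cre pair (OI-AdV-CRE-EGFP relative to AdV-CRE-EGFP), 10 were called higher (12.1% of all tested genes) and 9 lower (8.59%). The same 9 genes were called higher and the same 8 called lower in both, and no gene was called in opposite directions. In the EGFP pair the largest positive values belonged to Tgfa, Pdgfrl, Vegfd, Fgf14 and Fgf10, and the largest negative ones to Areg, Hbegf, Pdgfb, Fgf5 and Ereg. Libraries labelled as given Cre differed from their controls in fewer of these genes. After induction, 2 were called higher (2.41% of all tested genes) and 3 lower (2.57%), and before induction 1 was called higher (2.57%) and 1 lower (0.541%). The interaction, which asks whether the response to induction differed between the viruses and was called at an adjusted p under 0.05 alone, was positive for 5 genes (10.9% of all tested genes) and negative for 16 (12.3%). These comparisons share libraries, so their values are set side by side and are not independent of each other.

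**Figure D1:**
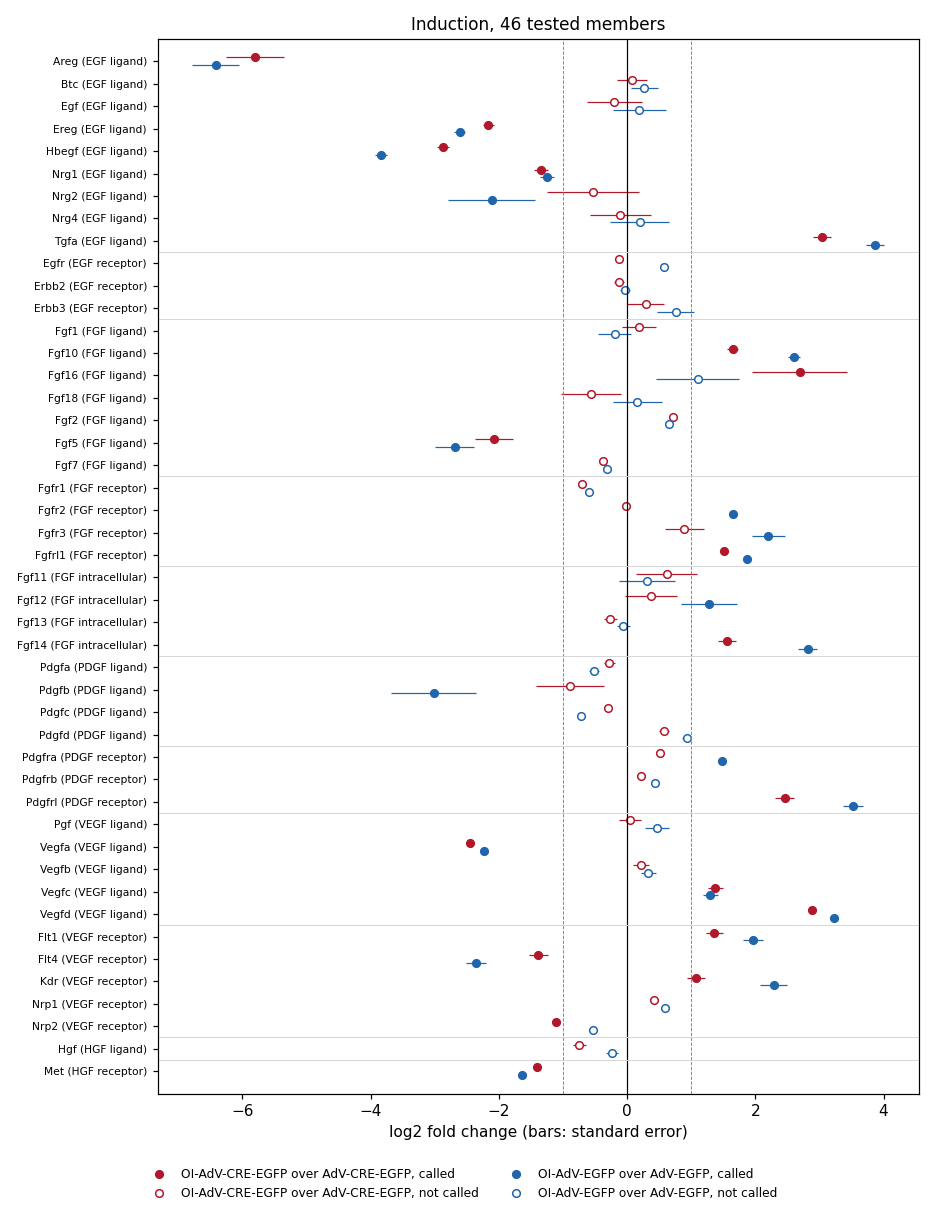
Log2 fold change with induction (x axis) of the 46 tested genes, ordered by family and role. Red points are OI-AdV-CRE-EGFP over AdV-CRE-EGFP and blue points OI-AdV-EGFP over AdV-EGFP, filled where called, with bars of 1 standard error and dashed lines at a log2 fold change of 1 in either direction. Tgfa, Pdgfrl and Vegfd lie farthest to the right and Areg farthest to the left, and Fgfr2 is filled in blue alone.

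The EGF receptor ligands moved in opposite directions. Areg (amphiregulin), Ereg (epiregulin) and Hbegf (heparin-binding EGF-like growth factor), which are made as membrane proteins and shed, fell with induction, while Tgfa (transforming growth factor alpha), another shed ligand of the same receptor, rose. Areg had 0.0588, 0.174 and 0.0544 CPM in OI-AdV-EGFP against 7.102, 8.68 and 10.5 CPM in AdV-EGFP, and 0.0604, 0.0617 and 0.0596 CPM in OI-AdV-CRE-EGFP against 2.68, 4.35 and 4.43 CPM in AdV-CRE-EGFP. It was at 1 to 3 counts in each induced library, and the groups did not overlap in either pair. Summed over libraries, the Areg count rate was lower by a factor of 92.5 (95% interval 39.3 to 286) in OI-AdV-EGFP than in AdV-EGFP, and by a factor of 62.7 (95% interval 21.1 to 307) in OI-AdV-CRE-EGFP than in AdV-CRE-EGFP, intervals that cover counting error only. Hbegf had 5.17, 3.66 and 5.27 CPM in OI-AdV-EGFP against 66.05, 69.5 and 66.8 CPM in AdV-EGFP. The log2 fold change was −3.84 ± 0.09 (adjusted p = 3.7e-30). With the Cre virus it had 6.52, 7.28 and 6.62 CPM in OI-AdV-CRE-EGFP against 46.7, 49.8 and 52.7 CPM in AdV-CRE-EGFP, with −2.87 ± 0.09 (adjusted p = 3.1e-26). Each induced library lay below each day 0 library. Ereg had 18.7, 15.3 and 14.6 CPM in OI-AdV-EGFP against 92.9, 107 and 96.5 CPM in AdV-EGFP, a log2 fold change of −2.61 ± 0.09 (adjusted p = 7.3e-18), and 17.9, 19.7 and 16.6 CPM in OI-AdV-CRE-EGFP against 71.7, 86.6 and 84.6 CPM in AdV-CRE-EGFP, a log2 fold change of −2.16 ± 0.09 (adjusted p = 4.5e-16). Ereg thus fell in both pairs without overlap. Tgfa went the other way, with 30.1, 30.6 and 31.3 CPM in OI-AdV-EGFP against 2.001, 2.55 and 1.73 CPM in AdV-EGFP and a log2 fold change of 3.87 ± 0.14 (adjusted p = 6.3e-25). With the Cre virus Tgfa had 18.8, 19.98 and 15.9 CPM in OI-AdV-CRE-EGFP against 1.89, 2.703 and 2.06 CPM in AdV-CRE-EGFP, a log2 fold change of 3.04 ± 0.14 (adjusted p = 1.1e-20). For Hbegf, Ereg and Tgfa the response differed between the viruses. The interaction was 0.97 ± 0.15 (adjusted p = 2.7e-06) for Hbegf and 0.45 ± 0.13 (adjusted p = 0.0144) for Ereg, whose fall was smaller with the Cre virus, and −0.83 ± 0.23 (adjusted p = 0.00777) for Tgfa, whose rise was smaller with it. For Areg, at 1 to 3 counts after induction, it was 0.61 ± 1.25 (adjusted p = 0.781).

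Among the 6 EGF receptor ligands, the summed FPKM was 11.2 to 13.2 in OI-AdV-CRE-EGFP and 14.05 to 15.1 in OI-AdV-EGFP libraries, against 41 to 46.6 in AdV-CRE-EGFP and 58.7 to 64.5 in AdV-EGFP libraries. Tgfa made up 31.2% to 33.3% of it in OI-AdV-CRE-EGFP and 44.6% to 49.1% in OI-AdV-EGFP, against 0.952% to 2.66% in AdV-CRE-EGFP and 0.618% to 0.883% in AdV-EGFP. Hbegf made up 21.9% to 24.8% in OI-AdV-CRE-EGFP and 11.1% to 15.8% in OI-AdV-EGFP, against 44.6% to 47.2% in AdV-CRE-EGFP and 45.4% to 47.9% in AdV-EGFP. Ereg stayed a large part, at 34.6% to 36% in OI-AdV-CRE-EGFP and 25.2% to 30.4% in OI-AdV-EGFP, against 41.7% to 44.6% in AdV-CRE-EGFP and 37.8% to 40.5% in AdV-EGFP. The make-up of the ligand RNA therefore changed along with its sum. Btc (betacellulin) and Egf itself were not called in any pairwise comparison, with Btc at 1.85 to 3.84 CPM and Egf at 0.578 to 1.51 CPM over all libraries.

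The 250 bases before the annotated starts of Areg and Tgfa are shown because these ligands of 1 receptor went in opposite directions. They come from the RefSeq promoter table (GRCm38.p6), which held 45 of the 60 symbols. Areg is at chr5:91139349-91139598 on the plus strand and Tgfa at chr6:86194972-86195221 on the plus strand, each written 5′ to 3′ in the direction of the gene. Capitals mark matches, on either strand, to the cAMP response element (TGACGTCA), the AP-1 motif (TGANTCA) and the glucocorticoid response element (AGAACA, then 3 bases of any kind, then TGTTCT), including its AGAACA arm alone, which the element contains. They also mark the TATA box (TATAAA), a PLAGL1 core (GGGGCCCC) and the GC box (GGGCGG).
Areg: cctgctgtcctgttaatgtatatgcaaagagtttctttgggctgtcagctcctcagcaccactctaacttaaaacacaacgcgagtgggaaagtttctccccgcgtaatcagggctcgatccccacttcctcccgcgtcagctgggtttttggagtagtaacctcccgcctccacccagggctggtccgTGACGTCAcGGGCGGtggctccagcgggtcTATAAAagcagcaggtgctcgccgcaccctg
Tgfa: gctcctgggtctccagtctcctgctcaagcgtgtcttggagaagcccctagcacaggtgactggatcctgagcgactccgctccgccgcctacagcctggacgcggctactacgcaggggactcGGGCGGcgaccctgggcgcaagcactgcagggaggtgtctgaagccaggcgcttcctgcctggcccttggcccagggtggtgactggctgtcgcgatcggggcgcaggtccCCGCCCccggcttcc
Areg held the cAMP response element at positions −61 to −54, a GC box at −52 to −47 and a TATA box at −31 to −26, counted back from the start. The element occurs in 1.55% of the 32851 promoters of this length in the table, and among the genes described here only in Areg and Flt1. Tgfa held 2 GC boxes, which occur in 32.7% of all promoters. Neither window held the AP-1 motif (6.75% of all promoters), the glucocorticoid response element (0.00913%), its arm alone (16.1%) or the PLAGL1 core (0.889%). TATA boxes occur in 12.4%. A match is a run of letters and not a measured binding site.

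**Figure D2:**
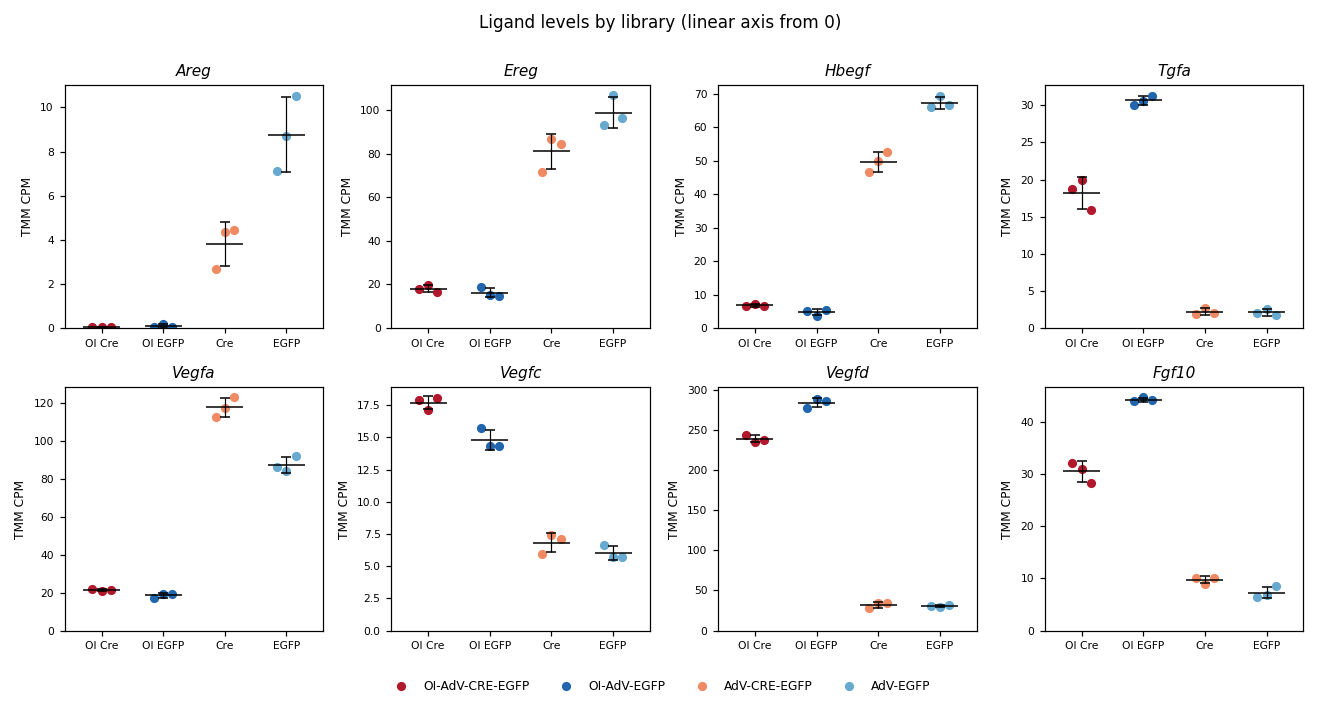
TMM-scaled CPM (y axis, linear from 0) of 8 ligands in each library, with OI-AdV-CRE-EGFP, OI-AdV-EGFP, AdV-CRE-EGFP and AdV-EGFP from left to right (x axis). Points are libraries, horizontal lines group means and bars 1 SD (n = 3). Areg, Ereg, Hbegf and Vegfa are low and Tgfa, Vegfc, Vegfd and Fgf10 high in both induced groups.

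The neuregulins bind ERBB3 and ERBB4. Nrg1 fell with induction, with 8.697, 10.4 and 10.98 CPM in OI-AdV-EGFP against 22.5, 21.9 and 27.05 CPM in AdV-EGFP, a log2 fold change of −1.25 ± 0.11 (adjusted p = 3.1e-13), and 9.48, 8.76 and 7.87 CPM in OI-AdV-CRE-EGFP against 21.5, 20.6 and 23.9 CPM in AdV-CRE-EGFP, a log2 fold change of −1.34 ± 0.11 (adjusted p = 1.7e-13). Its interaction was −0.09 ± 0.16 (adjusted p = 0.729) and was not called. Nrg2 was called lower with induction only in the EGFP pair, at −2.11 ± 0.68 (adjusted p = 0.00554), on 9 counts summed over OI-AdV-EGFP against 36 over AdV-EGFP. Of those 9 counts 7 lay in OI-AdV-EGFP replicate 3, without which the log2 fold change of Nrg2 was −3.54, and a test against the fold threshold itself (glmTreat) did not call it (adjusted p = 0.0901). Its means stayed under 1 CPM, 25.36% of its exon bases overlap those of Psd2 on the other strand, and its interaction of 1.58 ± 1.02 (adjusted p = 0.287) was not called. Nrg4, whose exons share 11.27% of their bases with Fbxo22 on the other strand, was at 0.383 to 1.10 CPM and was not called in any comparison.

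Among the EGF family receptors, Egfr was the one that was called. Egfr had 74.99, 76.5 and 72.2 CPM in OI-AdV-CRE-EGFP against 154, 152 and 155 CPM in OI-AdV-EGFP, so it fell with the Cre virus after induction with no overlap, at a log2 fold change of −1.04 ± 0.05 (adjusted p = 1.0e-20). On day 0 it had 78.2, 84.3 and 81.2 CPM in AdV-CRE-EGFP against 103, 100.5 and 106 CPM in AdV-EGFP, a log2 fold change of −0.34 ± 0.05 (adjusted p = 2.3e-07) that lay under the fold threshold. With induction the log2 fold change was 0.57 ± 0.04 (adjusted p = 2.7e-14) in OI-AdV-EGFP over AdV-EGFP and −0.12 ± 0.05 (adjusted p = 0.0209) in OI-AdV-CRE-EGFP over AdV-CRE-EGFP, and the interaction was −0.70 ± 0.07 (adjusted p = 1.0e-10). The OI-AdV-EGFP libraries thus stood above the other 3 groups. Erbb2, a receptor with no ligand of its own that pairs with the others, averaged 24.5 ± 1.27 CPM in OI-AdV-CRE-EGFP, 26.8 ± 1.17 in OI-AdV-EGFP, 26.7 ± 2.02 in AdV-CRE-EGFP and 27.4 ± 1.07 in AdV-EGFP (SD, n = 3) and was not called. Erbb3, whose own kinase is weak, averaged 1.81 ± 0.444, 2.14 ± 0.236, 1.48 ± 0.341 and 1.27 ± 0.124 CPM in the same order and was not called. The log2 fold change was 0.76 ± 0.29 (adjusted p = 0.0191) with induction in the EGFP pair. Of the Schwann cell markers, a cell type in which Erbb3 is also known, S100b was called higher with induction, with log2 fold changes of 3.26 in the EGFP and 2.38 in the Cre pair, and Sox10 was not called. Their part in the Erbb3 values was not tested.

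The secreted FGFs differed widely in level. Fgf7 was the most abundant by FPKM, at means of 49.6 in OI-AdV-CRE-EGFP, 68.95 in OI-AdV-EGFP, 63.5 in AdV-CRE-EGFP and 85.7 in AdV-EGFP. Fgf2 followed with FPKM means of 13.3, 19.8, 8.04 and 12.6 in that order. Fgf10 rose with induction, with 43.96, 44.7 and 44.2 CPM in OI-AdV-EGFP against 6.52, 6.83 and 8.52 CPM in AdV-EGFP, a log2 fold change of 2.599 ± 0.09 (adjusted p = 1.0e-24). With the Cre virus Fgf10 had 32.2, 30.95 and 28.4 CPM in OI-AdV-CRE-EGFP against 10.1, 8.97 and 10.1 CPM in AdV-CRE-EGFP, a log2 fold change of 1.65 ± 0.09 (adjusted p = 2.3e-18). FGF7 and FGF10 are mesenchymal ligands of the epithelial splice form of FGFR2. The rise of Fgf10 was smaller with the Cre virus, with an interaction of −0.95 ± 0.14 (adjusted p = 1.2e-06). Fgf10 was at −0.54 on the log2 scale after induction and at 0.42 before it in the libraries labelled as given Cre over their controls, neither of which reached the fold threshold.

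Fgf7 had log2 fold changes of −0.45 ± 0.05 (adjusted p = 2.0e-10) after and −0.39 ± 0.04 (adjusted p = 6.0e-09) before induction in Cre relative to EGFP libraries, and Fgf2 of −0.57 ± 0.05 (adjusted p = 6.1e-11) and −0.63 ± 0.06 (adjusted p = 5.7e-11). All 4 passed the adjusted p and none reached the fold threshold, and no library of the lower group overlapped the other. The 2 genes went opposite ways with induction, Fgf2 at 0.71 and 0.65 and Fgf7 at −0.38 and −0.32 on the log2 scale in Cre and EGFP libraries. Fgf2 shares 44.95% of its exon bases with Nudt6 on the other strand, and its values are uncertain because no source used here gives the strand setting of the counter, although Nudt6 was counted at no more than 3.14 CPM on average in a group.

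Fgf5, which ends the growth phase of hair follicles, fell with induction, with 0.823, 0.465 and 0.489 CPM in OI-AdV-EGFP against 4.07, 3.51 and 3.95 CPM in AdV-EGFP, a log2 fold change of −2.69 ± 0.30 (adjusted p = 3.6e-10), and 0.664, 0.555 and 1.01 CPM in OI-AdV-CRE-EGFP against 2.56, 3.16 and 3.79 CPM in AdV-CRE-EGFP, a log2 fold change of −2.07 ± 0.30 (adjusted p = 1.2e-07). Fgf16 was called higher with induction in the Cre pair alone, at 2.69 ± 0.74 (adjusted p = 0.00157), on 36 counts over OI-AdV-CRE-EGFP against 5 over AdV-CRE-EGFP, a count ratio of 6.85 (95% interval 2.68 to 22.4). Its interaction of 1.59 ± 1.05 (adjusted p = 0.302) was not called, so the viruses were not shown to differ in it. Fgf18, which acts on chondrocytes and osteoprogenitors, had 0.543, 0.678 and 0.417 CPM in OI-AdV-CRE-EGFP against 1.06, 1.86 and 0.653 CPM in OI-AdV-EGFP, and was called lower with the Cre virus at −1.11 ± 0.43 (adjusted p = 0.0372). The groups overlapped, and without OI-AdV-EGFP replicate 2, the highest library, the log2 fold change was −0.63 with an adjusted p of 0.338. The call was also lost without OI-AdV-EGFP replicate 1, OI-AdV-CRE-EGFP replicate 1 or OI-AdV-CRE-EGFP replicate 3, at log2 fold changes of −1.18, −1.10 and −0.95. Fgf1 was at 1.74 to 4.26 CPM and was not called in any comparison.

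Of the FGF receptors, Fgfr2 showed the largest difference between the viruses in its response to induction. In the EGFP pair it had 179, 181 and 177 CPM in OI-AdV-EGFP against 60.04, 56.4 and 53.97 CPM in AdV-EGFP, and it rose by 1.66 ± 0.05 (adjusted p = 5.8e-28) on the log2 scale. In the Cre pair it had 106, 109 and 101 CPM in OI-AdV-CRE-EGFP against 106, 106 and 108 CPM in AdV-CRE-EGFP, with overlapping values and a log2 fold change of −0.01 ± 0.05 (adjusted p = 0.82). The interaction was −1.67 ± 0.07 (adjusted p = 1.5e-21). Libraries labelled as given Cre were on opposite sides of their controls at the 2 times, with −0.76 ± 0.04 (adjusted p = 6.3e-17) after induction and 0.91 ± 0.05 (adjusted p = 5.8e-18) before it, so the EGFP libraries were lowest on day 0 and highest after induction. FGFR1 and FGFR2 are known from osteoprogenitors, and FGFR3 is known for slowing chondrocyte growth. Fgfr1 had 227, 223 and 227 CPM in OI-AdV-CRE-EGFP against 373, 359.5 and 372 CPM in AdV-CRE-EGFP, and 162, 173 and 167 CPM in OI-AdV-EGFP against 249, 251 and 256 CPM in AdV-EGFP. Its log2 fold changes were 0.43 ± 0.04 (adjusted p = 9.5e-12) after and 0.55 ± 0.04 (adjusted p = 1.3e-14) before induction in Cre relative to EGFP libraries and −0.71 and −0.59 with induction in the Cre and EGFP pairs, under the fold threshold in each case though no groups overlapped. The interaction for Fgfr1 was −0.12 ± 0.05 (adjusted p = 0.121). Fgfr2 made up 32.1% to 33.4% of the summed FPKM of Fgfr1 to Fgfr4 in OI-AdV-CRE-EGFP and 52.8% to 55.2% in OI-AdV-EGFP, against 23.5% to 25.6% in AdV-CRE-EGFP and 19.3% to 21.9% in AdV-EGFP. Fgfr2 shares 2.77% of its exon bases with Ctbp2 on the same strand. Fgfr1 made up most of the FGF receptor kinase RNA in 3 groups and less than Fgfr2 in OI-AdV-EGFP.

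Fgfr3 was low and rose with induction in the EGFP pair, with 5.17, 5.17 and 6.09 CPM in OI-AdV-EGFP against 1.42, 1.02 and 1.11 CPM in AdV-EGFP, a log2 fold change of 2.205 ± 0.26 (adjusted p = 1.7e-09). After induction it had 2.17, 1.36 and 2.504 CPM in OI-AdV-CRE-EGFP against 5.17, 5.17 and 6.09 CPM in OI-AdV-EGFP, so it was lower with the Cre virus with no overlap, at −1.44 ± 0.24 (adjusted p = 5.8e-06). In the Cre pair it had 2.17, 1.36 and 2.504 CPM in OI-AdV-CRE-EGFP against 1.28, 1.38 and 0.578 CPM in AdV-CRE-EGFP, a log2 fold change of 0.89 ± 0.30 (adjusted p = 0.0091) that was not called, and the interaction was −1.31 ± 0.42 (adjusted p = 0.0186). By limma on log2(FPKM + 1), Fgfr3 was not called with the Cre virus after induction (−0.56, adjusted p = 0.0731) or in the interaction (−0.40, adjusted p = 0.437). With induction in the EGFP pair that fit gave 0.78 (adjusted p = 0.00703), under the fold threshold. Chondrocyte markers, a cell type known for Fgfr3, summed to 91.02 to 95.5 CPM in OI-AdV-CRE-EGFP and 135 to 147 CPM in OI-AdV-EGFP, against 72.96 to 77.9 CPM in AdV-CRE-EGFP and 62.8 to 69.8 CPM in AdV-EGFP. On day 0 most of this sum was Sox9. After induction 1 of the 5 tested markers was called lower with the Cre virus and none higher, beside 2.57% and 2.41% of all tested genes. The defining Col9a1 and Matn1 were too low to test. The part of the chondrocyte markers in the Fgfr3 values was not tested. Fgfrl1, which has no kinase, rose with induction, with 92.3, 102 and 97.99 CPM in OI-AdV-EGFP against 26.1, 26.9 and 26.9 CPM in AdV-EGFP and 82.6, 79.98 and 82.9 CPM in OI-AdV-CRE-EGFP against 28.5, 30.9 and 26.6 CPM in AdV-CRE-EGFP, at log2 fold changes of 1.87 ± 0.06 (adjusted p = 4.1e-26) and 1.51 ± 0.06 (adjusted p = 6.7e-23) and an interaction of −0.36 ± 0.09 (adjusted p = 0.00205).

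**Figure D3:**
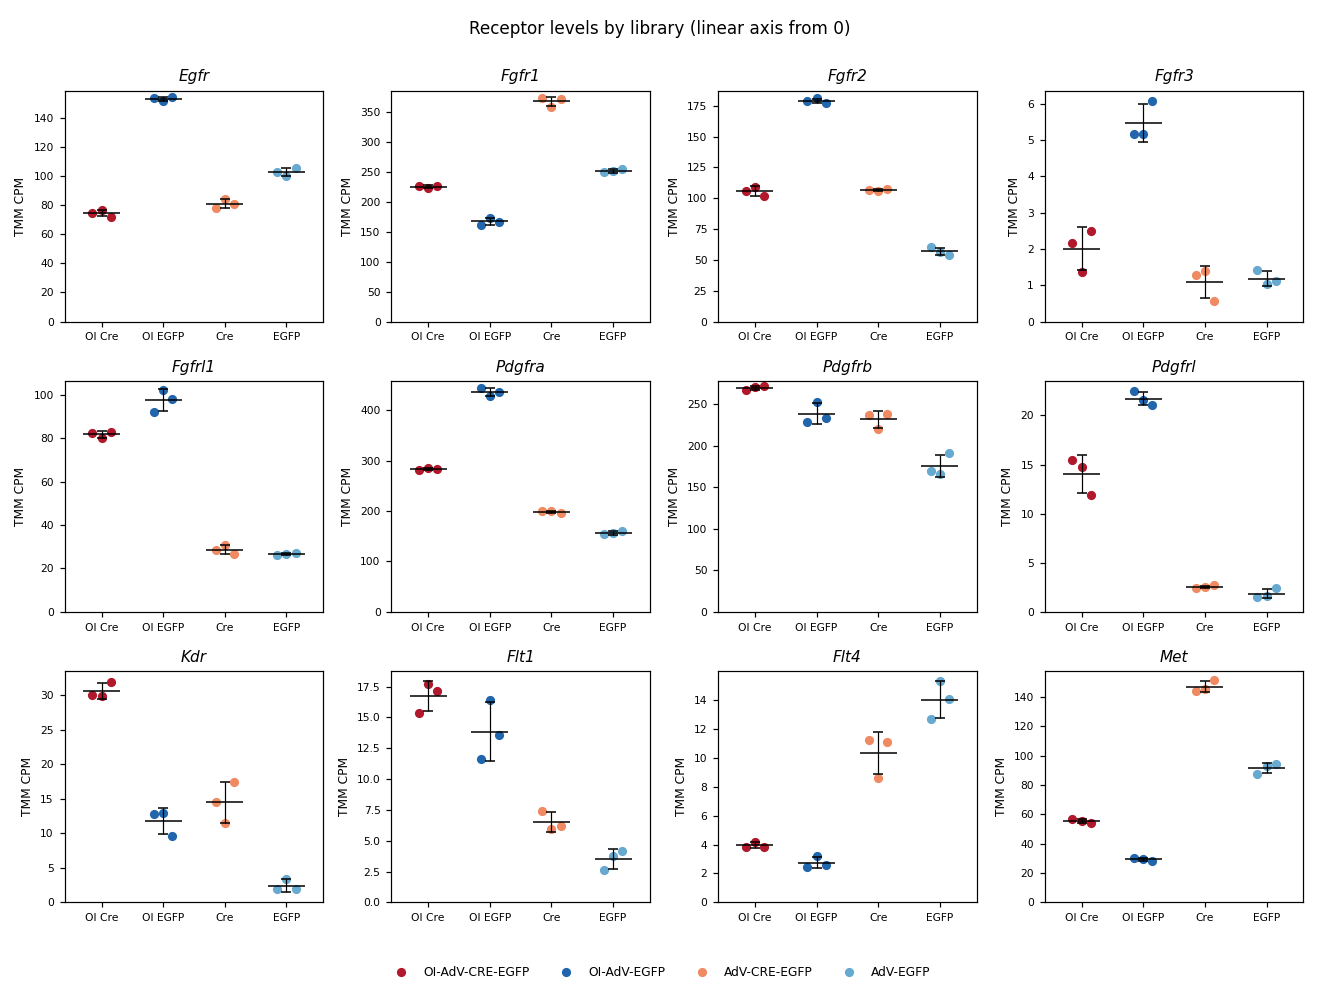
TMM-scaled CPM (y axis, linear from 0) of 12 receptors in each library, with OI-AdV-CRE-EGFP, OI-AdV-EGFP, AdV-CRE-EGFP and AdV-EGFP from left to right (x axis). Points are libraries, horizontal lines group means and bars 1 SD (n = 3). OI-AdV-EGFP is the highest group for Egfr, Fgfr2, Fgfr3, Fgfrl1, Pdgfra and Pdgfrl, and Kdr is higher in each Cre group than in its control.

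Fgf11, Fgf12, Fgf13 and Fgf14 encode FGF homologous factors, which are not secreted and bind voltage-gated sodium channels. Fgf14 had 21.5, 18.8 and 15.3 CPM in OI-AdV-EGFP against 2.78, 2.68 and 2.41 CPM in AdV-EGFP, a log2 fold change of 2.82 ± 0.15 (adjusted p = 2.5e-19), and 15.8, 16.2 and 13.5 CPM in OI-AdV-CRE-EGFP against 5.05, 4.55 and 5.78 CPM in AdV-CRE-EGFP, a log2 fold change of 1.56 ± 0.14 (adjusted p = 7.5e-13), and was called higher in both. These values are uncertain. Fgf14 (GRCm39, chromosome 14 from 124211258 to 124914539, minus strand) shares 51.5% of its exon bases with Itgbl1 on the other strand, and Itgbl1 averaged 716.8 CPM in OI-AdV-CRE-EGFP and 747 CPM in OI-AdV-EGFP, against 133.0 CPM in AdV-CRE-EGFP and 66.5 CPM in AdV-EGFP. The log2 fold changes of Itgbl1 were 3.49 with induction in the EGFP pair, 2.43 in the Cre pair, −0.06 and 1.00 with the Cre virus after and before induction, and −1.06 for the interaction. Those of Fgf14 were 2.82, 1.56, −0.29, 0.97 and −1.25 ± 0.21 (adjusted p = 2.1e-05) in that order, the same signs throughout, and the part of Itgbl1 reads in them was not tested. Fgf12 had 0.823, 1.63 and 1.41 CPM in OI-AdV-EGFP against 0.904, 0.447 and 0.247 CPM in AdV-EGFP, and was called higher at 1.27 ± 0.44 (adjusted p = 0.00861), although the groups overlapped. Without AdV-EGFP replicate 3 or OI-AdV-EGFP replicate 2 its log2 fold change was 0.91 or 1.08 and the call was lost. Fgf13 was not called, at log2 fold changes of 0.52 ± 0.10 (adjusted p = 5.6e-05) after and 0.72 ± 0.10 (adjusted p = 3.3e-07) before induction in Cre relative to EGFP libraries, and Fgf11 was at 0.304 to 1.13 CPM.

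In the PDGF family, 2 of 3 tested receptors and no ligand were called higher with induction in the EGFP pair, beside 15.1% of all tested genes. Pdgfra, which binds all dimers but PDGF-DD and marks mesenchymal progenitors, had 443, 428 and 436 CPM in OI-AdV-EGFP against 154, 156 and 161 CPM in AdV-EGFP, a log2 fold change of 1.47 ± 0.04 (adjusted p = 1.5e-29). In the Cre pair Pdgfra had 282, 285 and 283 CPM in OI-AdV-CRE-EGFP against 200.1, 199 and 196 CPM in AdV-CRE-EGFP, a log2 fold change of 0.51 ± 0.04 (adjusted p = 4.0e-15) that did not reach the fold threshold. The groups did not overlap in either pair, and the interaction was −0.96 ± 0.05 (adjusted p = 2.9e-17). Against their controls the libraries labelled as given Cre stood at −0.62 ± 0.04 (adjusted p = 5.6e-17) after and 0.34 ± 0.04 (adjusted p = 4.4e-09) before induction, again on opposite sides. Pdgfrl, a receptor-like protein without a kinase, had 22.4, 21.6 and 21.1 CPM in OI-AdV-EGFP against 1.55, 1.66 and 2.41 CPM in AdV-EGFP, a log2 fold change of 3.52 ± 0.15 (adjusted p = 2.4e-22), and 15.5, 14.7 and 11.9 CPM in OI-AdV-CRE-EGFP against 2.43, 2.51 and 2.697 CPM in AdV-CRE-EGFP, a log2 fold change of 2.46 ± 0.15 (adjusted p = 2.4e-17). It rose in both pairs, with an interaction of −1.07 ± 0.24 (adjusted p = 8.1e-04). These values are uncertain, because Pdgfrl shares 20.92% of its exon bases with Mtus1 on the other strand. The log2 fold changes of Mtus1 were 1.79 with induction in the EGFP pair, 0.68 in the Cre pair, −0.84 and 0.27 with the Cre virus after and before induction, and −1.11 for the interaction. The Cre virus values of Pdgfrl were −0.63 after and 0.44 before induction, so all 5 had the same sign in both genes. Pdgfrb, the receptor of PDGF-BB and PDGF-DD that mural cells carry, had 267, 271 and 272 CPM in OI-AdV-CRE-EGFP against 237, 220.2 and 239 CPM in AdV-CRE-EGFP, and 229, 253 and 234 CPM in OI-AdV-EGFP against 169.7, 166 and 191 CPM in AdV-EGFP. The interaction was −0.22 ± 0.07 (adjusted p = 0.0117), and no pairwise comparison was called. The 5 mural cell markers summed to 2098 to 2180.3 CPM in OI-AdV-CRE-EGFP and 1474 to 1523 CPM in OI-AdV-EGFP, against 5489.8 to 5714 CPM in AdV-CRE-EGFP and 4331 to 4473 CPM in AdV-EGFP. The markers did not move as 1: with induction in the EGFP pair 1 was called higher and 2 lower, beside 15.1% and 10.8% of all tested genes. Their part in the Pdgfrb values was not tested.

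Pdgfc was the most abundant PDGF ligand by FPKM, at means of 26.5 in OI-AdV-CRE-EGFP, 26.1 in OI-AdV-EGFP, 32.5 in AdV-CRE-EGFP and 42.98 in AdV-EGFP. It had 85.6, 84.03 and 75.3 CPM in OI-AdV-EGFP against 135, 135 and 130.4 CPM in AdV-EGFP, and 84.95, 84.8 and 83.1 CPM in OI-AdV-CRE-EGFP against 104, 103 and 105 CPM in AdV-CRE-EGFP, at log2 fold changes of −0.71 ± 0.05 (adjusted p = 3.2e-16) and −0.30 ± 0.05 (adjusted p = 9.3e-07) under the fold threshold, with an interaction of 0.41 ± 0.07 (adjusted p = 1.4e-05). Pdgfd, which like Pdgfc is cut by proteases before it can bind, had 50.4, 42.9 and 42.9 CPM in OI-AdV-EGFP against 23.05, 26.4 and 22.1 CPM in AdV-EGFP, and 42.02, 38.97 and 41.1 CPM in OI-AdV-CRE-EGFP against 28.5, 26.97 and 26.2 CPM in AdV-CRE-EGFP. Its log2 fold changes were 0.93 ± 0.08 (adjusted p = 1.1e-13) and 0.58 ± 0.08 (adjusted p = 1.7e-08), with an interaction of −0.35 ± 0.11 (adjusted p = 0.016), so the day 0 and induced libraries were apart for both ligands but in opposite directions. Pdgfa averaged 26.9 ± 0.375, 24.4 ± 1.2, 32.5 ± 3.34 and 34.9 ± 3.36 CPM in OI-AdV-CRE-EGFP, OI-AdV-EGFP, AdV-CRE-EGFP and AdV-EGFP (SD, n = 3) and was not called. Pdgfb rested on few counts, 5 over OI-AdV-EGFP against 39 over AdV-EGFP, a rate lower by a factor of 8.67 (95% interval 3.41 to 28.2), and was called lower with induction at −3.02 ± 0.66 (adjusted p = 9.3e-05). It was called higher with the Cre virus after induction at 1.85 ± 0.76 (adjusted p = 0.0485), and this call was lost in 8 of the 12 fits that left out 1 library, with log2 fold changes of 1.60 to 2.49 over the 12 fits and adjusted p-values up to 0.158. Those 8 left out any replicate of AdV-EGFP, AdV-CRE-EGFP replicate 3, OI-AdV-EGFP replicates 1 or 2, or OI-AdV-CRE-EGFP replicates 1 or 3.

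The VEGF ligands changed places with induction. Vegfd (also Figf), which in the mouse binds the receptor Flt4, rose, and Vegfa, the main factor of blood vessel growth, fell. Vegfd had 278, 288 and 286 CPM in OI-AdV-EGFP against 30.1, 28.99 and 31.7 CPM in AdV-EGFP, a log2 fold change of 3.23 ± 0.06 (adjusted p = 9.2e-35). In the Cre pair Vegfd had 244, 235 and 238 CPM in OI-AdV-CRE-EGFP against 27.8, 34.2 and 34.7 CPM in AdV-CRE-EGFP, a log2 fold change of 2.89 ± 0.06 (adjusted p = 4.4e-33). The interaction was −0.34 ± 0.08 (adjusted p = 0.00164), small beside the rise itself. Vegfa had 17.2, 19.3 and 19.3 CPM in OI-AdV-EGFP against 86.1, 84.2 and 91.9 CPM in AdV-EGFP, a log2 fold change of −2.23 ± 0.06 (adjusted p = 5.3e-28), and 22.04, 20.7 and 21.6 CPM in OI-AdV-CRE-EGFP against 113, 117 and 123 CPM in AdV-CRE-EGFP, a log2 fold change of −2.46 ± 0.06 (adjusted p = 1.9e-29), and its interaction of −0.22 ± 0.09 (adjusted p = 0.0722) was not called. Vegfc, the other ligand of Flt4, had 15.7, 14.4 and 14.4 CPM in OI-AdV-EGFP against 6.65, 5.68 and 5.68 CPM in AdV-EGFP, a log2 fold change of 1.301 ± 0.12 (adjusted p = 1.6e-12), and 17.9, 17.1 and 18.1 CPM in OI-AdV-CRE-EGFP against 5.96, 7.38 and 7.13 CPM in AdV-CRE-EGFP, a log2 fold change of 1.38 ± 0.11 (adjusted p = 1.8e-13). Vegfc rose in both pairs, and its interaction of 0.08 ± 0.17 (adjusted p = 0.802) was not called. By FPKM, Vegfd made up 78.8% to 80.7% of the 5 VEGF ligands in OI-AdV-CRE-EGFP and 82.7% to 84.3% in OI-AdV-EGFP, against 20.6% to 23.04% in AdV-CRE-EGFP and 25.3% to 26.4% in AdV-EGFP. Vegfa made up 5.24% to 6.07% in OI-AdV-CRE-EGFP and 3.46% to 4.57% in OI-AdV-EGFP, against 55.99% to 57.2% in AdV-CRE-EGFP and 48.2% to 51.7% in AdV-EGFP. At a mean of 140.4 FPKM in OI-AdV-EGFP, Vegfd had the highest group mean among the 61 genes. Vegfb, a ligand of Flt1, averaged 13.6 ± 1.42, 15.2 ± 2.63, 11.7 ± 0.918 and 12.03 ± 1.28 CPM, and Pgf (placental growth factor), which also binds Flt1, averaged 4.99 ± 0.631, 4.42 ± 0.373, 4.83 ± 0.547 and 3.19 ± 0.452 CPM in OI-AdV-CRE-EGFP, OI-AdV-EGFP, AdV-CRE-EGFP and AdV-EGFP (SD, n = 3). Neither was called.

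**Figure D4:**
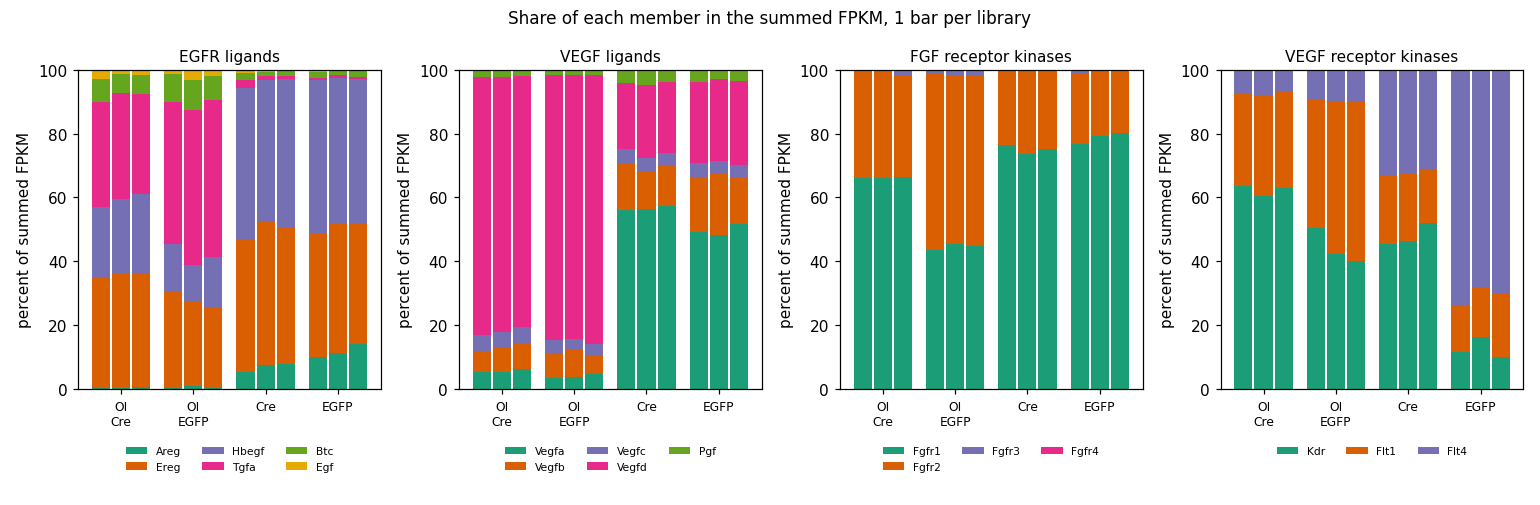
Percent of the summed FPKM (y axis, 0 to 100) taken by each gene among the EGF receptor ligands, the VEGF ligands, the FGF receptor kinases and the VEGF receptor kinases, with 1 stacked bar per library and the groups OI-AdV-CRE-EGFP, OI-AdV-EGFP, AdV-CRE-EGFP and AdV-EGFP from left to right (x axis). Vegfd takes 82.7% to 84.3% in OI-AdV-EGFP against 25.3% to 26.4% in AdV-EGFP, and Fgfr2 is above Fgfr1 in OI-AdV-EGFP alone.

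The signalling VEGF receptor Kdr was called in all 4 pairwise comparisons. Kdr had 14.5, 11.5 and 17.5 CPM in AdV-CRE-EGFP against 1.87, 3.45 and 1.91 CPM in AdV-EGFP, a log2 fold change of 2.59 ± 0.21 (adjusted p = 7.8e-09), and 30.1, 29.97 and 31.96 CPM in OI-AdV-CRE-EGFP against 12.9, 12.96 and 9.57 CPM in OI-AdV-EGFP, a log2 fold change of 1.38 ± 0.14 (adjusted p = 1.9e-07). The groups did not overlap at either time, so Kdr was higher in the libraries labelled as given Cre both before and after induction. With induction it rose by 2.29 ± 0.21 (adjusted p = 7.4e-09) in the EGFP pair and by 1.08 ± 0.14 (adjusted p = 1.2e-06) in the Cre pair, where the call was lost without AdV-CRE-EGFP replicate 2 (log2 fold change 0.94), and the interaction was −1.21 ± 0.26 (adjusted p = 0.00199). In FPKM its group means were 5.15 in OI-AdV-CRE-EGFP, 2.02 in OI-AdV-EGFP, 2.399 in AdV-CRE-EGFP and 0.411 in AdV-EGFP, so it stayed a low-level transcript beside Vegfd. Since Kdr, Flt1 and Flt4 are known from endothelium, the other endothelial markers were examined. Their 7 genes summed to 56.7 to 59.2 CPM in OI-AdV-CRE-EGFP and 60.1 to 65.5 CPM in OI-AdV-EGFP, against 63.4 to 65.95 CPM in AdV-CRE-EGFP and 66.2 to 69.1 CPM in AdV-EGFP, most of it Eng, and 4 of 7 were tested. Tie1 and Cldn5 had 5 and 2 counts over all 12 libraries. Cdh5, a cadherin of endothelial junctions, had 2.98, 2.64 and 3.596 CPM in AdV-CRE-EGFP against 0.7102, 0.8301 and 0.185 CPM in AdV-EGFP and 0.664, 0.802 and 0.596 CPM in OI-AdV-CRE-EGFP against 0.353, 0.465 and 0.272 CPM in OI-AdV-EGFP, and Tek, the angiopoietin receptor, had 1.03, 1.85 and 1.16 CPM in AdV-CRE-EGFP against 1.74, 0.8301 and 0.988 CPM in AdV-EGFP and 1.15, 1.79 and 2.03 CPM in OI-AdV-CRE-EGFP against 5.99, 4.42 and 5.66 CPM in OI-AdV-EGFP. Cdh5 thus was higher with the Cre virus at both times without overlap, as Kdr was, though it stood under 1 CPM in each induced library. Tek after induction was lower where Kdr was higher. Of the 4 tested markers, 2 had log2 fold changes above 0 and 2 below 0 with the Cre virus after induction. Their part in the Kdr values was not tested.

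Flt1, a high-affinity receptor of Vegfa that also exists in a soluble form, had 11.6, 16.4 and 13.5 CPM in OI-AdV-EGFP against 2.65, 3.77 and 4.199 CPM in AdV-EGFP, a log2 fold change of 1.96 ± 0.15 (adjusted p = 2.6e-14), and 15.4, 17.8 and 17.1 CPM in OI-AdV-CRE-EGFP against 7.42, 5.93 and 6.17 CPM in AdV-CRE-EGFP, a log2 fold change of 1.36 ± 0.14 (adjusted p = 2.9e-11). It rose in both, with an interaction of −0.60 ± 0.21 (adjusted p = 0.0332). Flt4, the receptor of Vegfc and Vegfd, went the other way from its ligands and fell with induction, with 2.47, 3.196 and 2.56 CPM in OI-AdV-EGFP against 12.7, 15.3 and 14.1 CPM in AdV-EGFP, a log2 fold change of −2.36 ± 0.15 (adjusted p = 8.0e-17). In the Cre pair Flt4 had 3.86, 4.19 and 3.82 CPM in OI-AdV-CRE-EGFP against 11.3, 8.64 and 11.1 CPM in AdV-CRE-EGFP, a log2 fold change of −1.39 ± 0.15 (adjusted p = 1.5e-10). The fall was smaller with the Cre virus, with an interaction of 0.97 ± 0.22 (adjusted p = 9.0e-04). Flt4 made up 7.12% to 7.99% of the summed FPKM of Kdr, Flt1 and Flt4 in OI-AdV-CRE-EGFP and 9.16% to 10.1% in OI-AdV-EGFP, against 31.4% to 33.4% in AdV-CRE-EGFP and 68.1% to 73.7% in AdV-EGFP. The neuropilins were far more abundant than these kinases, with FPKM means of 27.1 for Nrp1 and 26.8 for Nrp2 in AdV-EGFP. Nrp2 had 114, 112 and 117 CPM in OI-AdV-CRE-EGFP against 252, 249 and 239 CPM in AdV-CRE-EGFP, a log2 fold change of −1.11 ± 0.04 (adjusted p = 7.6e-24) that was called lower. In the EGFP pair Nrp2 had 114, 123 and 118 CPM in OI-AdV-EGFP against 169, 174 and 169.8 CPM in AdV-EGFP, a log2 fold change of −0.53 ± 0.04 (adjusted p = 4.3e-14), and the interaction was −0.58 ± 0.06 (adjusted p = 8.2e-10). Nrp1 was not called, at log2 fold changes of −0.74 ± 0.05 (adjusted p = 8.3e-16) after and −0.56 ± 0.05 (adjusted p = 1.4e-11) before induction in Cre relative to EGFP libraries, with no overlap.

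The upstream windows of Vegfd, the gene with the highest level, and Kdr, the one called in all 4 pairwise comparisons, are shown with the same motifs in capitals. Vegfd is at chrX:164373272-164373521 on the plus strand and Kdr at chr5:75978456-75978705 on the minus strand (RefSeq, GRCm38.p6), written 5′ to 3′ in the direction of the gene.
Vegfd: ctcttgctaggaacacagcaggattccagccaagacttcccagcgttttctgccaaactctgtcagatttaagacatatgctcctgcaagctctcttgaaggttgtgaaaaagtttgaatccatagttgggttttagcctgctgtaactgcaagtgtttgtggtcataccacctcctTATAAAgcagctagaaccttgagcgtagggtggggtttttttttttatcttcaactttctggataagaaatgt
Kdr: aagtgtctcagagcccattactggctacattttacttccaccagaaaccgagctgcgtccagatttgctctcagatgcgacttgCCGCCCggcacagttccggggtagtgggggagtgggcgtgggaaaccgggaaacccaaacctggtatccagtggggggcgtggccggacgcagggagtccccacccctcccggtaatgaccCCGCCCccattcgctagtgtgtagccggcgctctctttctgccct
Vegfd held a TATA box at positions −73 to −68 and no GC box, while Kdr held 2 GC boxes and no TATA box. Over all 45 genes with a window, 28 held a GC box, 5 a TATA box, 3 the AP-1 motif and 1 each the glucocorticoid arm (Fgf13) and the PLAGL1 core (Fgfr4). These genes had 57 windows, and a gene was counted if any of its windows held the match. The shares of all promoters given above are of single windows, so the 2 are not on the same footing.

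Hgf, a mesenchymal factor made as an inactive precursor, and Met, its receptor, moved apart in the libraries labelled as given Cre. Met had 56.6, 55.6 and 54.02 CPM in OI-AdV-CRE-EGFP against 30.1, 29.8 and 27.9 CPM in OI-AdV-EGFP and 144, 145 and 151 CPM in AdV-CRE-EGFP against 87.4, 93.2 and 94.1 CPM in AdV-EGFP, log2 fold changes of 0.92 ± 0.06 (adjusted p = 2.9e-16) and 0.68 ± 0.05 (adjusted p = 2.5e-14). Hgf had 10.99, 9.37 and 9.12 CPM in OI-AdV-CRE-EGFP against 18.98, 18.9 and 19.7 CPM in OI-AdV-EGFP and 17.7, 16.1 and 15.6 CPM in AdV-CRE-EGFP against 23.7, 21.8 and 22.3 CPM in AdV-EGFP, log2 fold changes of −0.96 ± 0.10 (adjusted p = 2.1e-10) and −0.45 ± 0.09 (adjusted p = 1.6e-04). Neither reached the fold threshold, and no groups overlapped. With induction Met fell, at −1.65 ± 0.06 (adjusted p = 8.9e-26) in the EGFP pair and −1.41 ± 0.05 (adjusted p = 1.3e-24) in the Cre pair, with an interaction of 0.24 ± 0.07 (adjusted p = 0.0166), and Hgf stood at −0.23 ± 0.09 (adjusted p = 0.0167) and −0.75 ± 0.10 (adjusted p = 3.3e-08), with an interaction of −0.51 ± 0.13 (adjusted p = 0.00426).

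With the Cre virus, 10.9% of the 46 genes were called after induction and 4.35% before it. Over all tested genes, 2.41% were called higher and 2.57% lower after induction, and 2.57% higher and 0.541% lower before it. After induction Kdr and Pdgfb were called higher and Egfr, Fgfr3 and Fgf18 lower, and before induction Kdr was called higher and Areg lower. Areg had 2.68, 4.35 and 4.43 CPM in AdV-CRE-EGFP against 7.102, 8.68 and 10.5 CPM in AdV-EGFP, without overlap, a log2 fold change of −1.202 ± 0.20 (adjusted p = 8.8e-06), and after induction its 1 to 3 counts per library left no difference detectable at this depth, at −0.59 ± 0.98 (adjusted p = 0.669). Over the 46 genes the median log2 fold change was −0.15 after and −0.0018 before induction, beside −0.01 over all tested genes at both times. In all, 26 genes after and 23 before induction passed the adjusted p alone, called genes included. The shares of all tested genes above also require the fold threshold, so they are no background for these counts, and no excess is claimed. Among other cell types, the epithelial list summed to 6.94 to 7.51 CPM in OI-AdV-CRE-EGFP and 2.01 to 2.56 CPM in OI-AdV-EGFP, against 8.18 to 8.61 CPM in AdV-CRE-EGFP and 1.16 to 3.396 CPM in AdV-EGFP, with Krt18 called higher with Cre at both times (4.601 and 4.15 on the log2 scale) and Krt5, Krt14 and Epcam at 25, 19 and 16 counts over all libraries. Cdh1, also tested from the epithelial list, was not called with Cre. After induction it went the other way, with 18, 14 and 23 counts in OI-AdV-CRE-EGFP against 31, 37 and 25 in OI-AdV-EGFP. Osteoblast markers summed to 39.1 to 43.5 CPM in OI-AdV-CRE-EGFP against 149.6 to 379 CPM in OI-AdV-EGFP, with 6 of 7 called lower. The part of either in these values was not tested.

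**Figure D5:**
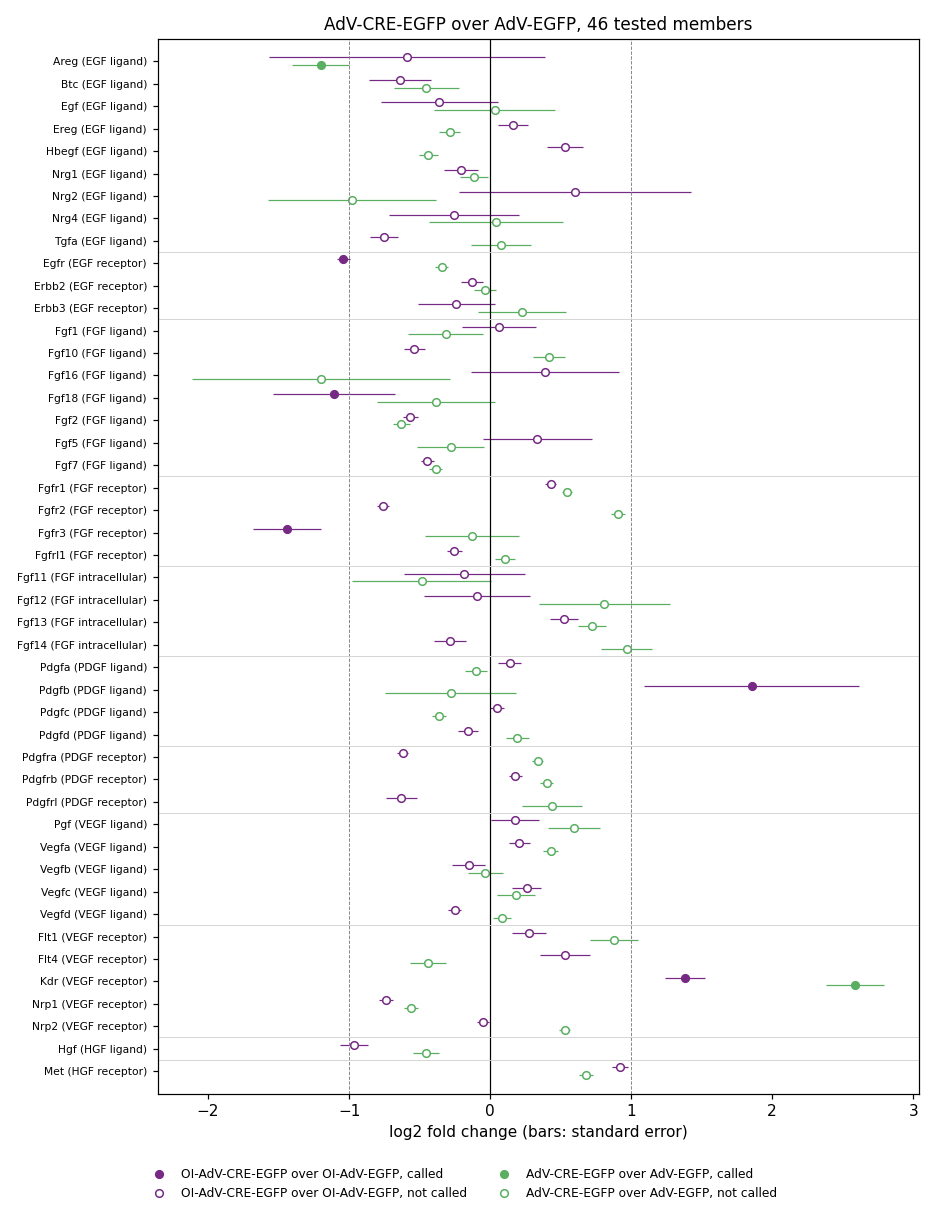
Log2 fold change (x axis) of the 46 tested genes in libraries labelled as given Cre over their controls, ordered by family and role. Purple points are OI-AdV-CRE-EGFP relative to OI-AdV-EGFP and green points AdV-CRE-EGFP relative to AdV-EGFP, filled where called, with bars of 1 standard error and dashed lines at a log2 fold change of 1 in either direction. Kdr is filled in both, and Fgfr2 and Pdgfra lie left of 0 after and right of 0 before induction.

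The interaction was called for 12 of 16 tested receptors, 8 of 26 ligands and 1 of 4 intracellular genes, beside 10.9% of all tested genes with a positive and 12.3% with a negative one. Of 16 tested receptors and co-receptors, 10 had a negative interaction that was called, namely Egfr, Fgfr2, Fgfr3, Fgfrl1, Pdgfra, Pdgfrb, Pdgfrl, Kdr, Flt1 and Nrp2, and 2 had a positive one, Flt4 and Met. Of 26 tested ligands, 5 were negative (Fgf10, Hgf, Pdgfd, Tgfa and Vegfd) and 3 positive (Ereg, Hbegf and Pdgfc). The median interaction was −0.52 over the receptors and −0.08 over the ligands, beside −0.01 over all tested genes, given as a description. The intracellular Fgf14 was the remaining negative one. Of the 16 negative genes, 11 were called higher with induction in the EGFP pair, and of the 5 positive ones all but Pdgfc were called lower there. The interaction subtracts the EGFP pair value, so genes that rose there tend to a negative interaction by construction. These counts are therefore a description and not a separate result. For 7 of the 21 the call was lost in some of the 12 fits that left out a library, whose range is given for each. Flt1 (−0.72 to −0.40) lost it without replicates 1 or 2 of AdV-EGFP, replicates 1 or 3 of AdV-CRE-EGFP, OI-AdV-EGFP replicate 2 or OI-AdV-CRE-EGFP replicate 1. Fgfr3 (−1.58 to −1.09) lost it without replicates 1 or 2 of AdV-CRE-EGFP, OI-AdV-EGFP replicate 3 or OI-AdV-CRE-EGFP replicate 2. Pdgfd (−0.40 to −0.27) lost it without replicates 1 or 3 of AdV-EGFP, AdV-CRE-EGFP replicate 1 or OI-AdV-EGFP replicate 1, and Pdgfrb (−0.26 to −0.16) without replicates 1 or 2 of AdV-EGFP or 1 or 3 of AdV-CRE-EGFP. Ereg (0.38 to 0.56) lost it without replicates 2 or 3 of OI-AdV-EGFP or OI-AdV-CRE-EGFP replicate 2, Met (0.20 to 0.30) without OI-AdV-EGFP replicate 3 and Tgfa (−0.97 to −0.66) without AdV-CRE-EGFP replicate 2. The other 14 were called in all 12. Of these, Kdr (−0.23, adjusted p = 0.384) and Fgfrl1 (−0.27, adjusted p = 0.114) were not called by limma on log2(FPKM + 1).

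Neighbouring genes of these pathways, in 7 lists, were counted in the same way. Of 16 ERK target and feedback genes, 14 were called lower with induction in the EGFP pair and 12 in the Cre pair (10.8% and 8.59% of all tested genes), none higher, with median log2 fold changes of −2.14 and −1.67 beside 0.05 and 0.02 over all tested genes. Fosl1, an AP-1 subunit, had log2 fold changes of −3.53 ± 0.09 (adjusted p = 7.7e-29) and −2.58 ± 0.09 (adjusted p = 1.2e-25) in the EGFP and Cre pairs. Phlda1 had −3.44 ± 0.10 (adjusted p = 4.5e-28) and −2.795 ± 0.09 (adjusted p = 3.3e-26). Dusp5, a phosphatase of ERK, had −2.73 ± 0.10 (adjusted p = 1.8e-24) and −2.75 ± 0.09 (adjusted p = 1.9e-25). Etv4, an ETS factor, had −3.29 ± 0.12 (adjusted p = 1.4e-24) and −2.46 ± 0.12 (adjusted p = 1.7e-20). Dusp4, another such phosphatase, was the 1 gene of the list called with the Cre virus, higher at 2.37 ± 0.09 (adjusted p = 1.7e-22) after and 1.99 ± 0.06 (adjusted p = 3.9e-25) before induction. The 5 proliferation markers summed to 149.7 to 157 CPM in OI-AdV-CRE-EGFP and 135 to 154 CPM in OI-AdV-EGFP, against 632 to 659 CPM in AdV-CRE-EGFP and 873 to 906 CPM in AdV-EGFP, and their part in the list was not tested.

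Of 24 heparan sulfate carriers and enzymes, 6 were called higher and 5 lower with induction in the EGFP pair, and 1 higher and 4 lower in the Cre pair. Over all tested genes 15.1% were called higher and 10.8% lower in the EGFP pair, and 12.1% higher and 8.59% lower in the Cre pair. Hs6st2, a 6-O-sulfotransferase, fell in the EGFP pair with a log2 fold change of −2.81 ± 0.05 (adjusted p = 3.8e-33), as did Sulf1, which removes 6-O-sulfate, with −2.49 ± 0.05 (adjusted p = 3.0e-34). The 3-O-sulfotransferases Hs3st3a1 and Hs3st1 rose by 2.004 ± 0.14 (adjusted p = 5.6e-16) and 1.803 ± 0.17 (adjusted p = 2.8e-12). With the Cre virus after induction Hs3st3a1 was lower, at −1.16 ± 0.12 (adjusted p = 8.1e-10), and it was the 1 gene of this list called there. Among 11 semaphorins and plexins of the neuropilins, Sema3b (2.31), Sema3d (1.88), Plxna2 (1.62) and Sema3f (1.19) were called higher on the log2 scale in the EGFP pair, and 1 was called lower, Sema3a, which the naming rule would not have picked. Plau, the urokinase that can activate HGF, fell at −2.54 ± 0.05 (adjusted p = 1.8e-33) in the EGFP pair and −2.24 ± 0.05 (adjusted p = 1.9e-31) in the Cre pair, and with Plat it made up the 2 of 5 HGF activation genes called lower in the EGFP pair. Of 6 tested FGF co-receptors and binding proteins none was called with induction in the EGFP pair, while in the Cre pair Fgfbp1 and Flrt3 fell (−2.68 and −1.56), and Fgfbp1 was higher with Cre before induction (2.73). Of 15 tested adaptors, Grb10 alone was called in a pairwise comparison, higher with induction in the EGFP pair at 1.04 ± 0.04 (adjusted p = 1.5e-25). Of 9 tested ERBB regulators and shedding genes, Lrig1, which lowers ERBB receptors, was called lower with induction in both pairs (−1.52 and −1.19) and Ptpn12 in the EGFP pair.

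The 15 genes below the count filter were at no more than 17 counts in any library. Fgf3, Fgf20 and the second Nrg1 identifier had no count in the 12 libraries, a total that counting error allows for up to 3 expected counts. Fgf4 had 1 count over all libraries, Fgf8 had 4, Nrg3 had 5, Fgf6 and Fgf17 had 7 each, Fgf23, the bone hormone of phosphate, had 8, Fgf15 had 20, Fgfr4 had 22, Fgf21 had 39, Fgf22 had 41, Fgf9 had 67 and Erbb4 had 72. Fgf22 shares 81.67% of its exon bases with Rnf126 on the other strand. Erbb4, the second neuregulin receptor, had 23 counts over OI-AdV-CRE-EGFP against 6 over OI-AdV-EGFP, a count ratio of 4.07 (95% interval 1.61 to 12.2), and 33 over AdV-CRE-EGFP against 10 over AdV-EGFP, a ratio of 3.31 (95% interval 1.59 to 7.53). Fgf9, a ligand of FGFR3, had 29 over OI-AdV-CRE-EGFP against 8 over OI-AdV-EGFP, 17 of them in 1 library. These intervals cover counting error and not the spread between libraries.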

How the data were processed

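Per the authors' methods and the submitters' processing notes, reads of 12 libraries were trimmed with Cutadapt, aligned to GRCm39 with HISAT2 and counted per gene with HTSeq. The sources used here give neither the annotation release nor the strand setting. The deposited counts hold fractions for 1646 to 1844 genes in each library, so they were taken as estimated counts and rounded. The authors also deposited FPKM values, scaled to transcript length and library size, which served here for levels of different genes and for 1 alternative.

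Counts were fitted in edgeR 4.0.16 (R 4.3.3) with TMM scaling, filterByExpr and quasi-likelihood tests over 4 group means, and p-values were adjusted by Benjamini-Hochberg over the 13670 genes left. Common variation between replicates was 0.0472 as a biological coefficient of variation. Replicates of each group differed by more than counting noise. The code was tested on simulated data. Alternatives were DESeq2 1.42.0, other scalings and filters, a replicate block, glmTreat, groups fitted alone, limma 3.58.1 on log2(FPKM + 1), and leaving out each library. Genes called in any comparison at a group mean of at least 1 CPM are given by library, other tested ones by mean or range, the rest by counts, and up to 4 called genes per pathway list are named. The families and lists were chosen with earlier results of these data known, and the members of the families then followed from their symbols. Library totals limit low genes, and intervals on count ratios are exact at 95% and cover counting error only. Coordinates of genes are from GENCODE on GRCm39, and upstream sequences are from RefSeq on GRCm38.p6. The summed level of the Schwann cell markers is not reported here.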

Additional observations from a re-analysis of the deposited data

Results flagged for a closer look

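The response to induction differed between the Cre virus and the EGFP virus, by the edgeR interaction term at an adjusted p under 0.05, for 21 of the 46 tested genes. Each value is the log2 fold change with induction in the Cre pair minus that in the EGFP pair. Among receptors it was −1.67 for Fgfr2, −1.31 for Fgfr3, −1.21 for Kdr, −1.07 for Pdgfrl, −0.96 for Pdgfra, −0.70 for Egfr, −0.60 for Flt1, −0.58 for Nrp2, −0.36 for Fgfrl1 and −0.22 for Pdgfrb, and on the positive side 0.97 for Flt4 and 0.24 for Met. Among ligands it was −0.95 for Fgf10, −0.83 for Tgfa, −0.51 for Hgf, −0.35 for Pdgfd and −0.34 for Vegfd, and on the positive side 0.97 for Hbegf, 0.45 for Ereg and 0.41 for Pdgfc. The intracellular Fgf14 had −1.25, and its neighbour on the other strand, Itgbl1, −1.06. Groups of 3 libraries are too small for a test of single libraries that stand apart.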

How the results depend on the processing

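The 230 results for single genes (46 genes in 5 comparisons) gave 4689 values over 21 settings, of which 4556 kept direction and side of the threshold, 71 lost the call, 12 gained it, and 49 changed sign with neither value past the adjusted p. The 1 reversal was Egfr with induction in the Cre pair, 0.0231 on log2(FPKM + 1), where the adjusted p was 0.704. The causes of the shifts below were not tested.

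On log2(FPKM + 1), all genes called with induction were 1173 higher and 845 lower in the EGFP pair and 867 and 578 in the Cre pair. With the Cre virus they were 109 higher and 130 lower after and 115 and 7 before induction. Among the genes described here, 1 was then higher and 1 lower with the Cre virus after induction, and 10 had a negative interaction. With glmTreat, which tests against the fold threshold itself, 0 were higher and 0 lower with the Cre virus after induction and 0 lower before it. Over all genes glmTreat called 134 higher and 94 lower after, 153 and 1 before, and 1041 and 751 with induction in the Cre pair. Pdgfb was lost, leaving 1 higher after induction, with DESeq2, library totals, a mean CPM of at least 1 and groups fitted alone. glmTreat and groups fitted alone gave no interaction.

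Leaving out each library gave 12 to 13 higher and 10 to 10 lower with induction in the EGFP pair and 10 to 11 and 9 to 9 in the Cre pair. It gave 1 to 3 and 2 to 3 with the Cre virus after and 1 to 2 and 1 to 1 before induction, and 3 to 7 positive and 12 to 16 negative interactions. Erbb4 passed the count filter in 10 of these fits and was called higher with the Cre virus in 5 after and 8 before induction. A replicate block left 13 and 10, 10 and 9, 2 and 3, 1 and 1, and 5 and 16 called, the main counts. Deviations of libraries from their group means correlated at −0.144 to 0.108 between same-numbered libraries of different groups and at −0.158 to 0.15 between others. These values gave no sign of pairing by number, and they cannot exclude it. Depth limits Areg after induction, Pdgfb, Nrg2, Fgf12, Fgf16, Fgf18 and the genes below the filter.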

Other observations

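Genes around these receptors also differed between the viruses in their response to induction. Of the 16 ERK target and feedback genes, 10 had a positive interaction and 2 a negative one, beside 10.9% and 12.3% of all tested genes. All 16 fell with induction in both pairs, so a positive interaction there is a smaller fall with the Cre virus. Genes that fell in the EGFP pair tend to a positive interaction by construction. These counts are therefore a description and not a separate result. Dusp6, a phosphatase of ERK, had 1.22 ± 0.12 (adjusted p = 6.5e-10), Fosl1 0.95 ± 0.14 (adjusted p = 1.8e-06) and Etv4 0.83 ± 0.18 (adjusted p = 7.4e-04), and on the negative side Egr1, an immediate early factor, had −0.72 ± 0.10 (adjusted p = 9.6e-07). Of the 24 heparan sulfate carriers and enzymes, 4 were positive and 6 negative. The 3-O-sulfotransferases Hs3st1 and Hs3st3a1 had −1.71 ± 0.24 (adjusted p = 6.0e-07) and −1.22 ± 0.21 (adjusted p = 2.2e-05), and Sulf1 had 0.90 ± 0.06 (adjusted p = 3.7e-14). Plxna2, a plexin that pairs with neuropilins, had −1.36 ± 0.07 (adjusted p = 7.6e-17). Of the 15 tested adaptors, Grb10 had −0.66 ± 0.05 (adjusted p = 2.9e-13) and Gab2 0.55 ± 0.12 (adjusted p = 5.5e-04). Among the HGF activation genes, Furin, Plau and Plat had 0.31, 0.30 and 0.24. These adjusted p-values are from edgeR over all tested genes.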
